A study of Mus musculus with 16 samples.

Results

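RNA sequencing was used to compare mouse mammary organoids carrying mutations in HER2 and in PIK3CA together with wild-type (WT) organoids. The comparison took every sample labelled with both mutations (the double mutants, 5 libraries) and every WT sample (3 libraries), which is 8 of the 16 libraries of the study. The other 8 libraries carry 4 times the HER2 mutation alone and 4 times the PIK3CA mutation alone. They were fitted together with these 8, so they share in the filter, the scaling and the estimate of spread behind every adjusted p. Apart from that, their values are only set beside those of the double mutants. Organoids are small multicellular structures grown from tissue in culture. Normal breast was the source of the WT organoids, and breast tumor that of every mutant, so that genotype and tissue of origin cannot be told apart in the comparison with WT. The study's title names the variants as V777L in HER2 and H1047R in PIK3CA. How the mutations were introduced, the age and strain of the mice and whether the libraries of a genotype came from separate animals are not given in the sources used here, so p-values measure the spread between these libraries, which may be partly technical.

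All organoids were grown in the same medium, which contained epidermal growth factor (EGF) at 50 ng/ml, 10% of a conditioned medium with Rspo1 and Noggin, 125 µM N-acetyl-cysteine and 10 mmol/L HEPES. The libraries held 45545182 to 64168308 reads counted on genes, with 48010713 to 57800959 in WT and 50771543 to 56507646 in the double mutants. Levels are given as CPM, read counts scaled to a common library size, which compare 1 gene between samples and not genes of different length. Depth sets the lowest readable values: 3 reads are worth 0.05 to 0.06 CPM in a WT library and 0.0532 to 0.0629 CPM in a double mutant library.

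HER2, the product of Erbb2, is a receptor tyrosine kinase of the ErbB family that has no known ligand of its own and signals by pairing with EGFR, HER3 or HER4. PIK3CA encodes the p110 alpha catalytic subunit of the lipid kinase PI3K, which lies downstream of these receptors and feeds AKT and mTOR signalling. Activating mutations of both genes are found in breast cancer, and both pathways reach the cyclin D machinery that controls entry into the cell cycle as well as the transcription factors of lipid synthesis. The study's title names the p21, CDK4/6 and cyclin D1 axis, and the genes of that axis are given in full below.

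Of 24252 genes tested, 2850 (11.8%) passed an adjusted p under 0.05 in edgeR's quasi-likelihood test, which is the test behind every adjusted p below. Of these, 1220 were higher (5.03%) and 1630 lower (6.72%) in the double mutants. These shares are the background for every count of gene list members against WT below. The 2 directions differed in size. Among the higher genes 531 changed by under 2-fold, 436 by 2- to 4-fold, 212 by 4- to 16-fold and 41 by 16-fold or more. Among the lower genes 422 changed by under 2-fold, 383 by 2- to 4-fold, 399 by 4- to 16-fold and 426 by 16-fold or more. The large losses were thus more numerous than the large gains, 825 against 253 genes at 4-fold or more, while the median over all tested genes was 0.01 on the log2 scale. All double mutants lay above all WT libraries in 2347 genes (9.68%) and below them in 3240 (13.4%). Protein-coding genes made up 1003 of the higher and 1416 of the lower genes. Without WT library 3 the counts were 385 higher and 815 lower, and without WT library 1 they were 497 and 1064, so the number of calls depended on these 2 libraries.

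**Figure D1:**
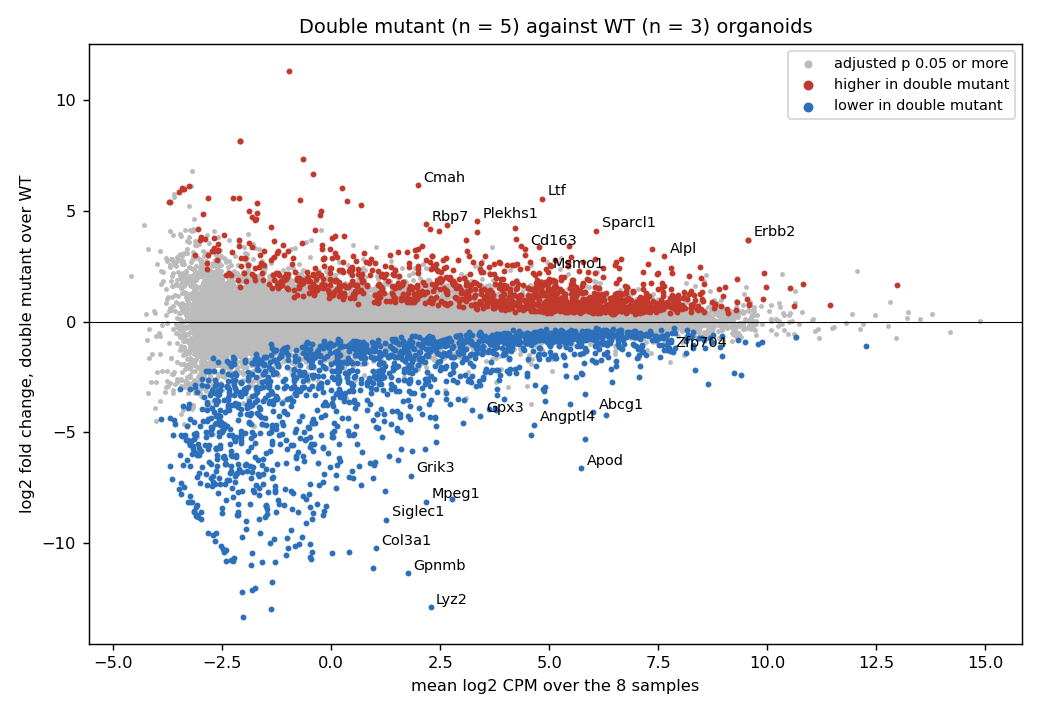
Log2 fold change of the double mutants over WT (y axis) against the mean level over the 8 libraries in log2 CPM (x axis), 1 point per tested gene, with genes that passed the test in colour and 20 named genes labelled. Of the 24252 genes, 1220 lie in the higher and 1630 in the lower coloured group, and the lower group reaches further from 0.

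The first principal component of the 8 libraries took up 51.3% of the variance and separated the genotypes, with WT at -131 to -84.2 and the double mutants at 47.3 to 88.3. The second took up 18% and set double mutants 2 and 3 (67.8 and 70.5) apart from double mutants 1, 4 and 5 (-65.9, -44.3 and -56.9). Because these 2 libraries stand apart, counts that rest on them are also given without them.

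Erbb2 itself (ENSMUSG00000062312, chromosome 11, 98412470 to 98437716 in GRCm38) was the higher gene with the smallest p. It stood at 153, 171 and 145 CPM in WT and 1499, 2751, 2705, 1553 and 1649 CPM in the double mutants, a 13-fold difference (log2 fold change 3.70 ± 0.271 SE, adjusted p 4.87e-06). Every double mutant library lay far above every WT library, and double mutants 2 and 3 were the highest. The counts do not separate mutant from normal Erbb2 reads. Mien1, which overlaps Erbb2, did not pass the test, with 18.3, 18 and 20.9 CPM in WT and 25.3, 28.5, 20.2, 21.6 and 20.1 CPM in the double mutants (log2 fold change 0.28 ± 0.19 SE, adjusted p 0.377). Pik3ca (ENSMUSG00000027665, chromosome 3, 32397671 to 32468486 in GRCm38) stood at 85.7, 75.9 and 82.3 CPM in WT and 117, 122, 109, 112 and 114 CPM in the double mutants, without overlap between the groups, and was 1.41-fold higher (log2 fold change 0.50 ± 0.103 SE, adjusted p 0.00527). Thus the level of Erbb2 differed by an order of magnitude and that of Pik3ca by less than 2-fold.

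The other receptors of the family went the opposite way or did not pass. Of 16 tested ErbB receptors, ligands and adaptors, 4 rose (Erbb2, Areg, Ereg and Nrg1) and 4 fell (Erbb3, Erbb4, Nrg4 and Grb7). Erbb3, which encodes the kinase-impaired partner of HER2, fell from 301, 247 and 317 CPM in WT to 143, 128, 134, 162 and 133 CPM in the double mutants (log2 fold change -1.04 ± 0.128 SE, adjusted p 0.000208). Erbb4, the neuregulin receptor involved in milk-producing differentiation, stood at 26.3, 4.9 and 24.2 CPM in WT and 0.106, 0.105, 0.0393, 0.369 and 0.156 CPM in the double mutants and was almost lost from the double mutants (log2 fold change -6.87 ± 1.05 SE, adjusted p 0.000667). Egfr, the receptor for the EGF in the medium, stood at 184, 187 and 155 CPM in WT and 200.1, 184, 165, 152 and 161 CPM in the double mutants (log2 fold change -0.02 ± 0.126 SE, adjusted p 0.928), and the ranges of the groups overlapped. Grb7, which encodes an adaptor that binds phosphorylated HER2 and HER3 and lies next to Erbb2 on the chromosome, fell in spite of the rise of Erbb2, with 81.9, 67.6 and 80.7 CPM in WT and 27.9, 34.6, 37.6, 34.4 and 26.9 CPM in the double mutants (log2 fold change -1.25 ± 0.153 SE, adjusted p 0.000208).

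Among the ligands, Areg and Ereg, which bind EGFR, rose, as did Nrg1, which binds HER3 and HER4. Areg stood at 1.29, 1.28 and 1.63 CPM in WT and 8.88, 15.9, 6.38, 10.7 and 11.9 CPM in the double mutants (log2 fold change 2.94 ± 0.451 SE, adjusted p 0.000693). Nrg1 stood at 10.7, 31.5 and 9.81 CPM in WT and 93.7, 47.9, 72.5, 64.3 and 67.8 CPM in the double mutants (log2 fold change 2.0 ± 0.353 SE, adjusted p 0.0018). Ereg stood at 0.105, 1.1 and 0.417 CPM in WT and 2.54, 7.15, 8.54, 2.79 and 1.93 CPM in the double mutants (log2 fold change 3.09 ± 0.795 SE, adjusted p 0.0193), highest in double mutants 2 and 3, and its call was lost without those 2 libraries and without WT library 1 or 3. Hbegf, a further EGFR ligand chosen here after its values were seen, did not pass (log2 fold change 1.45 ± 0.679 SE, adjusted p 0.18) but was split within the double mutants, with 14.5, 103, 91.7, 20.5 and 11.6 CPM against 16.8, 19.2 and 16.7 CPM in WT. Nrg4, a ligand of HER4, fell from 16, 10.3 and 14.9 to 4.15, 4.8, 5.06, 5.17 and 3.85 CPM (log2 fold change -1.58 ± 0.255 SE, adjusted p 0.000978).

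Downstream of the receptors, a minority of the listed PI3K and ERK pathway genes passed. Of all tested genes, 5.03% were higher and 6.72% lower. Of 22 PI3K subunits, phosphatases and FOXO targets 3 rose (Pik3ca, Pik3r3 and Foxo3) and 3 fell. The number that rose was 1 without WT library 3. The genes that fell were Pik3cd, the PI3K subunit best known from leukocytes (log2 fold change -3.23 ± 0.431 SE, adjusted p 0.000324), Inpp5d, a lipid phosphatase of blood cells (log2 fold change -5.90 ± 0.902 SE, adjusted p 0.000677), and Sesn3, a FOXO target (log2 fold change -1.18 ± 0.222 SE, adjusted p 0.00279). Pik3cd stood at 11.3, 9.59 and 26 CPM in WT and 1.86, 1.17, 1.24, 2.33 and 1.73 CPM in the double mutants and Inpp5d at 15.8, 8.83 and 40.2 CPM in WT and 0.301, 0.378, 0.275, 0.296 and 0.544 CPM in the double mutants, and in WT both were highest in library 3, where the macrophage markers described below were highest too. Their part in this result was not tested. Of 17 ERK feedback and early response genes 4 rose and none fell: Dusp5 (log2 fold change 1.90 ± 0.417 SE, adjusted p 0.00734), Epha2 (log2 fold change 1.26 ± 0.291 SE, adjusted p 0.0105), Dusp4 (log2 fold change 0.54 ± 0.148 SE, adjusted p 0.0252) and Fosl1 (log2 fold change 3.02 ± 0.81 SE, adjusted p 0.0236). None of these 4 calls held without WT library 3, and 2 of the 17 passed without WT library 1, without WT library 2 or without double mutants 2 and 3.

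Markers of cell types other than epithelium were among the large losses. All markers of this comparison are read in bulk RNA, in which fewer cells of a type and less RNA per cell cannot be told apart. Of 20 macrophage and myeloid markers 19 were lower and none higher, against 6.72% and 5.03% of all tested genes, with a median log2 fold change of -9.36. Against WT, 14 of the 20 were also lower in HER2 single mutants and 18 in PIK3CA single mutants. The shares of all genes that were lower in the single mutants than in WT are not given here. The double mutants were lower than HER2 single mutants in 13 of the 20 and than PIK3CA single mutants in 0. Of all genes, 1.47% were lower in the double mutants than in HER2 single mutants and 0.363% than in PIK3CA single mutants. The summed level of the list in CPM was 2471, 884 and 5087 in WT and 17.9, 69.9, 59.1, 16.6 and 14.9 in the double mutants, and the 2 ranges were far apart. Csf1r, the receptor for the macrophage growth factor, fell from 40.8, 12.5 and 79.8 CPM to 1.54, 1.78, 1.88, 1.33 and 1.87 CPM (log2 fold change -4.72 ± 0.573 SE, adjusted p 0.000208). Lyz2, lysozyme of myeloid cells, fell from 1109, 405 and 2649 CPM to 0.337, 0.168, 0.157, 0.185 and 0.0389 CPM (adjusted p 0.000739). The macrophage transcription factor gene Spi1 stood at 12, 10.1 and 36.3 CPM in WT and 0.124, 0.021, 0.137, 0.203 and 0.0778 CPM in the double mutants (adjusted p 0.000208), and the leukocyte gene Ptprc at 15.1, 8.7 and 43.2 CPM in WT and 0.0709, 0.105, 0.0589, 0.0369 and 0.0583 CPM in the double mutants (adjusted p 0.000291). In every WT library these genes were read in numbers and in every double mutant most of them were near the floor of a few reads. WT library 2 was the lowest of the 3 WT libraries for Lyz2, Csf1r, Spi1 and Ptprc, and WT library 3 the highest.

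The remaining myeloid genes among the largest losses were Gpnmb, Siglec1, Mpeg1, Ccl6 and Mmp12. Siglec1, a sialic acid receptor of macrophages, stood at 126, 40.8 and 259.6 CPM in WT and 0.0887, 0.336, 0.824, 0.0924 and 0.117 CPM in the double mutants, and Mpeg1, a pore-forming protein gene of macrophages, at 117, 64 and 317 CPM in WT and 0.461, 1.05, 0.294, 0.61 and 0.564 CPM in the double mutants. Mmp12, macrophage elastase, was at 115, 112 and 126 CPM in WT and at 0.213, 0, 0, 0.739 and 1.94 CPM in the double mutants (adjusted p 0.00408). Its 3 WT values lay close together. A pair of further genes are in no list. Plxnc1, a semaphorin receptor, fell from 13.8, 10.5 and 35.9 to 0.762, 0.441, 0.864, 1.13 and 0.933 CPM (log2 fold change -4.60 ± 0.457 SE, adjusted p 7.37e-05). Ifi207 fell from 12.8, 5.28 and 21 to 0.55, 1.15, 0.51, 0.757 and 0.7 CPM (log2 fold change -4.15 ± 0.453 SE, adjusted p 0.000153), both again highest in WT library 3 and lowest in WT library 2.

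Cd163, which encodes a haemoglobin scavenger receptor usually read as a macrophage marker, went the other way. It stood at 3.57, 7.62 and 4.8 CPM in WT and 49.6, 46.9, 48.5, 61.1 and 54.7 CPM in the double mutants (log2 fold change 3.29 ± 0.242 SE, adjusted p 4.87e-06) and was the higher gene with the second smallest p after Erbb2. The 5 double mutant libraries lay within a narrow range, in which the summed level of the 20 macrophage markers was 14.9 to 69.9 CPM. Its level was 56.2 ± 7.86 CPM (SD, n = 4) in PIK3CA single mutants and 22.8 ± 4.47 CPM (SD, n = 4) in HER2 single mutants. Which cells carried this RNA was not tested.

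**Figure D2:**
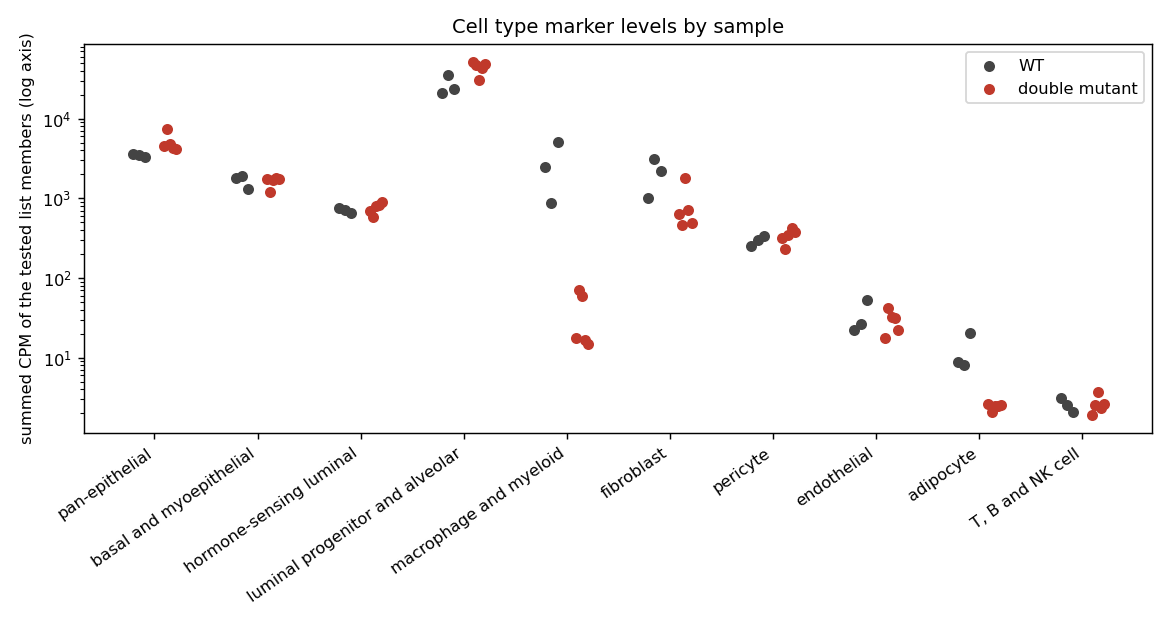
Summed level of each cell type marker list in CPM (y axis, log scale) for the 3 WT and 5 double mutant libraries, 1 point per library. The macrophage sums are 884 to 5087 CPM in WT and 14.9 to 69.9 CPM in the double mutants, and the fibroblast sums are 997 to 3121 and 469 to 1803 CPM.

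Stromal markers that passed were mostly lower, and the summed levels of the 2 groups overlapped. Of 16 fibroblast markers 10 fell and none rose, with a median of -4.08. The median was -3.98 with Dpt, which had no read in any double mutant, held at a bound of 3 reads per library. The summed level in CPM was 997, 3121 and 2191 in WT and 632, 469, 1803, 724 and 484 in the double mutants, so that double mutant 3 lay above WT library 1. Col3a1, a fibrillar collagen of connective tissue, fell from 36.9, 313 and 291 CPM to 0.0887, 0.503, 0.216, 0.0924 and 0 CPM (log2 fold change -10.23 ± 1.87 SE, adjusted p 0.00227). Pdgfra, the fibroblast receptor for platelet-derived growth factor, fell less far, from 93.6, 134 and 113 CPM to 14.3, 6.76, 10.4, 24.4 and 13.4 CPM (log2 fold change -3.03 ± 0.501 SE, adjusted p 0.00113). Col1a1 stood at 133, 999 and 785 CPM in WT and 12.3, 16.6, 22.5, 14.2 and 14.5 CPM in the double mutants (log2 fold change -5.32 ± 1.07 SE, adjusted p 0.00434), with WT library 1 well below the other WT libraries. Of the 9 pericyte markers 6 fell and 1 (Notch3) rose, but without WT library 3 only 1 of the 6 still passed and without WT library 1 only 3, and Notch3 passed in neither fit. Without double mutants 2 and 3, 3 pericyte markers were lower. The summed pericyte level in CPM was 251, 299.7 and 333 in WT and 317, 232, 345, 429 and 379 in the double mutants. Only double mutant 2 lay below the lowest WT library in this sum. Pdgfrb, the leading pericyte gene, fell from 26.7, 40.7 and 129.8 to 1.74, 0.42, 2.65, 1.72 and 1.05 CPM (log2 fold change -5.44 ± 0.821 SE, adjusted p 0.000631). Of 9 tested endothelial markers 4 fell (Pecam1, Kdr, Vwf and Erg). The number was 1 without WT library 3 and 2 without WT library 1 or without double mutants 2 and 3. The summed endothelial level was 22.3 to 52.9 CPM in WT and 17.9 to 41.9 CPM in the double mutants.

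Matrix genes fell along with these markers. Of 20 proteoglycans, matrix glycoproteins and elastic fibre genes 8 fell and 1 (Tnc) rose, and of 19 matrix proteases and inhibitors 8 fell and none rose. Tnc did not pass without WT library 1 or 3 or without double mutant 3. Apod, a secreted lipid carrier, fell from 1561, 1329.8 and 1735 CPM to 12.3, 0.336, 3.91, 29.2 and 32.5 CPM (log2 fold change -6.62 ± 1.3 SE, adjusted p 0.00381). Eln, elastin, stood at 5.75, 9.57 and 19.8 CPM in WT and 1.15, 1.78, 1.35, 1.22 and 1.23 CPM in the double mutants (log2 fold change -3.12 ± 0.635 SE, adjusted p 0.00469). Comp, a cartilage matrix protein gene, stood at 15, 68.3 and 31.5 CPM in WT and 0.833, 0.566, 1.47, 2.66 and 4.01 CPM in the double mutants (log2 fold change -4.32 ± 0.652 SE, adjusted p 0.000629). Mmp2, a gelatinase, fell from 91.6, 404 and 243 to 22, 22, 32.6, 27.2 and 26 CPM (log2 fold change -3.25 ± 0.488 SE, adjusted p 0.000621). Mmp11 fell from 16.5, 51.9 and 51.6 to 3.55, 2.41, 3.95, 3.93 and 3.64 CPM (log2 fold change -3.52 ± 0.407 SE, adjusted p 0.000198). For all of these genes the 2 groups did not overlap, where 13.4% of all tested genes had every double mutant below every WT library. No overlap was a condition for naming Apod, and the others were picked for a small p in their list. The lack of overlap is therefore not a separate result. Reck, a membrane-anchored inhibitor of metalloproteases, fell too, from 71.7, 74.8 and 76.2 to 19.4, 21.6, 37, 19.3 and 20.8 CPM (log2 fold change -1.65 ± 0.183 SE, adjusted p 0.000165). Svep1, a large adhesion protein gene, fell from 7.18, 48.2 and 59.9 to 0.461, 0.294, 1.16, 0.203 and 0.233 CPM (log2 fold change -6.35 ± 0.688 SE, adjusted p 0.000151). The summed macrophage markers were also lower in every double mutant, while the summed fibroblast markers overlapped between the groups. The part of these markers in the losses of matrix genes was not tested.

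Epithelial markers were read in all 8 libraries. Of 16 pan-epithelial markers 2 rose, the keratin genes Krt7 and Krt8, and none fell, and the summed level in CPM was 3619, 3497 and 3270.5 in WT and 4490.4, 7509.8, 4875, 4239 and 4149 in the double mutants. Krt7 stood at 93.2, 109 and 78.3 CPM in WT and 297, 785, 475, 276 and 284 CPM in the double mutants (log2 fold change 2.18 ± 0.408 SE, adjusted p 0.00272) and Krt8 at 313, 341 and 314 CPM in WT and 722, 1223, 564, 537 and 504 CPM in the double mutants (log2 fold change 1.14 ± 0.272 SE, adjusted p 0.0127), the latter without a call when WT library 1 or 3 was left out. Of 16 basal and myoepithelial markers 2 fell (Myh11 and Lgr5) and 1 rose (Krt17), against 6.72% lower and 5.03% higher of all tested genes. Krt17 did not pass without WT library 1 or 3 or without double mutant 2, 3 or 4, and Lgr5 passed only without double mutant 1 or 2 among the 8 fits with 1 library left out. Myh11, smooth muscle myosin, fell from 5.58, 12 and 8.29 to 2.46, 2.37, 2.12, 2.22 and 1.07 CPM (log2 fold change -2.07 ± 0.307 SE, adjusted p 0.000571). Of 12 tested hormone-sensing luminal markers 1 rose (Cited1, not without WT library 1 or 3) and 1 fell (Esr1, not without WT library 2), and the list had a median log2 fold change of 0.07.

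Of 19 luminal progenitor and alveolar markers 5 rose and none fell, and all 5 encode secreted milk proteins: Csn2, Csn3, Csn1s1, Ltf and Wfdc18. Only 1 or 2 of these 5 still passed when any 1 WT library was left out. Csn2, beta casein, stood at 0.035, 0.1 and 0.334 CPM in WT and 12.8, 12.1, 0.883, 7.57 and 1.87 CPM in the double mutants (log2 fold change 5.44 ± 1.21 SE, adjusted p 0.00818). The mean of Csn2 was 8962 ± 9698 CPM (SD, n = 4) in HER2 single mutants, with the double mutants far below them (log2 difference -10.31, adjusted p 0.000558) while above the PIK3CA single mutants (log2 difference 4.95, adjusted p 0.0431). Ltf, lactoferrin, stood at 3.44, 4.64 and 2.3 CPM in WT and 106, 414, 15.6, 157 and 111 CPM in the double mutants (log2 fold change 5.54 ± 1.44 SE, adjusted p 0.0202), a wide range in which double mutant 3 was the lowest, and lost its call without any 1 of the WT libraries. Csn3, kappa casein, stood at 3049, 4877 and 4627 CPM in WT and 20559, 10471, 5821, 13537 and 15201 CPM in the double mutants (log2 fold change 1.65 ± 0.462 SE, adjusted p 0.0293).

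Several mucin and glycan genes rose. Of 20 tested mucins and enzymes of sialic acid or O-glycan synthesis 9 rose and none fell, with a median log2 fold change of 1.04. Of the 12 higher genes named for the size of their change, the largest change was that of Cmah, which converts one sialic acid into another and stood at 0.0699, 0.32 and 0.484 CPM in WT and 11.4, 14.5, 28.1, 20 and 30.3 CPM in the double mutants (log2 fold change 6.15 ± 1.3 SE, adjusted p 0.00594). Gne, the enzyme that starts sialic acid synthesis, rose from 35.8, 43.9 and 31.2 to 80.9, 151, 86.3, 103 and 101 CPM (log2 fold change 1.50 ± 0.302 SE, adjusted p 0.00444). St6gal1, which attaches sialic acid to N-glycans, rose from 20.6, 40.2 and 20.2 to 71.4, 69.3, 49, 63.5 and 65.8 CPM (log2 fold change 1.24 ± 0.217 SE, adjusted p 0.00166). Muc20 stood at 5.96, 22.8 and 7.32 CPM in WT and 133, 94.2, 35.7, 73.7 and 72 CPM in the double mutants (log2 fold change 2.77 ± 0.577 SE, adjusted p 0.00545). Muc4, a membrane mucin that can bind HER2, stood at 0.979, 3.52 and 0.25 CPM in WT and 7.57, 109, 13.2, 22.6 and 9.55 CPM in the double mutants (log2 fold change 4.37 ± 1.1 SE, adjusted p 0.0172), with most of its group mean in double mutant 2, and its call was lost without WT library 1 or 3. Muc1, a further membrane mucin, did not pass, with 735, 321 and 511 CPM in WT and 126, 70.3, 99.7, 209 and 243 CPM in the double mutants (log2 fold change -1.80 ± 0.568 SE, adjusted p 0.0503). The annotations of Muc4 and Muc20 overlap, so that their reads may be split. The number of the 20 that rose was 4 without WT library 1 and 6 without double mutants 2 and 3.

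Of 20 tight and gap junction genes 5 rose, among them Cldn1, Gja1 and Gjb1, and none fell. Gjb1, connexin 32, was at 0, 0.06 and 0 CPM in WT and at 3.76, 3.9, 0.883, 5.91 and 2.39 CPM in the double mutants (adjusted p 0.000264). Cldn1, claudin 1, rose from 7.11, 10.1 and 3.67 to 109, 111, 34.4, 54.5 and 48.1 CPM (log2 fold change 3.35 ± 0.608 SE, adjusted p 0.00217). Both had all double mutants above all WT libraries, as had 9.68% of all tested genes. Without WT library 3 the count was 3.

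The other genes with the largest gains were of mixed function. Plekhs1 stood at 0.857, 3.56 and 0.901 CPM in WT and 19.4, 88.7, 56.5, 23.4 and 15.6 CPM in the double mutants (log2 fold change 4.53 ± 0.722 SE, adjusted p 0.000892). Ceacam20, a cell adhesion molecule of epithelial surfaces, stood at 2.67, 6.52 and 1.13 CPM in WT and 77, 37.2, 32.1, 83.3 and 92.7 CPM in the double mutants (log2 fold change 4.23 ± 0.737 SE, adjusted p 0.00165). Sparcl1, a secreted matrix-associated protein gene, rose from 10, 7.7 and 19.4 to 101, 284, 270.4, 137 and 278 CPM (log2 fold change 4.11 ± 0.613 SE, adjusted p 0.000598). Its level was 17.3-fold higher in the double mutants. Pglyrp1, a bacterial peptidoglycan binding protein gene, rose from 1.24, 3.2 and 1.43 to 29.3, 67.4, 17.4, 22.3 and 22.9 CPM (log2 fold change 4.03 ± 0.663 SE, adjusted p 0.00111). Pi15, a secreted protease inhibitor gene, rose from 1.15, 5.2 and 6.42 to 34.5, 38.1, 43.5, 78.1 and 84.5 CPM (log2 fold change 3.71 ± 0.63 SE, adjusted p 0.00137). Nlrp9b rose from 0.664, 2.7 and 0.15 to 19.3, 11.7, 13.7, 25 and 29.9 CPM (log2 fold change 4.09 ± 0.845 SE, adjusted p 0.00512). Fgfbp1, which releases fibroblast growth factors from the matrix, stood at 0.402, 2.22 and 0.234 CPM in WT and 9.72, 28.2, 17.1, 21.4 and 9.82 CPM in the double mutants (log2 fold change 4.19 ± 1.03 SE, adjusted p 0.0153) and lost its call without WT library 1 or 3. Rbp7, a retinol-binding protein gene, stood at 0.489, 1.48 and 0.267 CPM in WT and 25.2, 16.3, 10.2, 10.5 and 15.7 CPM in the double mutants (log2 fold change 4.39 ± 0.552 SE, adjusted p 0.00023). It was near WT level, 0.603 ± 0.288 CPM (SD, n = 4) in HER2 single mutants, and the difference of the double mutants from them passed (log2 difference 4.69, adjusted p 0.000558). It was at 11.3 ± 1.95 CPM (SD, n = 4) in PIK3CA single mutants, and the difference of the double mutants from this level did not pass (log2 difference 0.46, adjusted p 0.713).

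Several metabolic and secretory gene groups rose at smaller fold changes, and they are shown as shares in the plot of gene lists. Of 23 cholesterol synthesis genes 16 rose and none fell, against 5.03% and 6.72% of all tested genes, with a median log2 fold change of 1.23. The 16 ranged from Hmgcs1, an early enzyme of the path, to Dhcr7, a late one, and included the regulators Srebf2 and Insig1. Insig1, which holds SREBP in the ER when sterols are plentiful, stood at 23.8, 21.3 and 37.1 CPM in WT and 192, 102, 78.6, 183 and 186 CPM in the double mutants (log2 fold change 2.43 ± 0.464 SE, adjusted p 0.00304). Dhcr7 stood at 28.2, 25.7 and 28.2 CPM in WT and 114, 97.6, 61.3, 109.9 and 117 CPM in the double mutants (log2 fold change 1.87 ± 0.316 SE, adjusted p 0.00133). Msmo1, a sterol demethylation enzyme, stood at 14.6, 8.87 and 12.4 CPM in WT and 58.1, 71.8, 65.9, 43.5 and 44.4 CPM in the double mutants (log2 fold change 2.24 ± 0.295 SE, adjusted p 0.000321). In all 3 genes the lowest double mutant was above the highest WT library, as in 9.68% of all tested genes. Tmem97, which is outside the list and encodes a sterol-linked membrane protein, rose from 6.85, 6.86 and 6.19 to 26, 28, 24.8, 22.9 and 23 CPM (log2 fold change 1.91 ± 0.221 SE, adjusted p 0.000198). The count was 11 to 12 of 23 when a WT library was left out and 16 without double mutants 2 and 3. Set beside the single mutants, 0 of the 23 genes passed in edgeR against HER2 mutants (5 at an unadjusted p under 0.05, 0 in DESeq2) and 3 were higher against PIK3CA mutants, where 1.03% and 0.309% of all genes were higher.

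**Figure D3:**
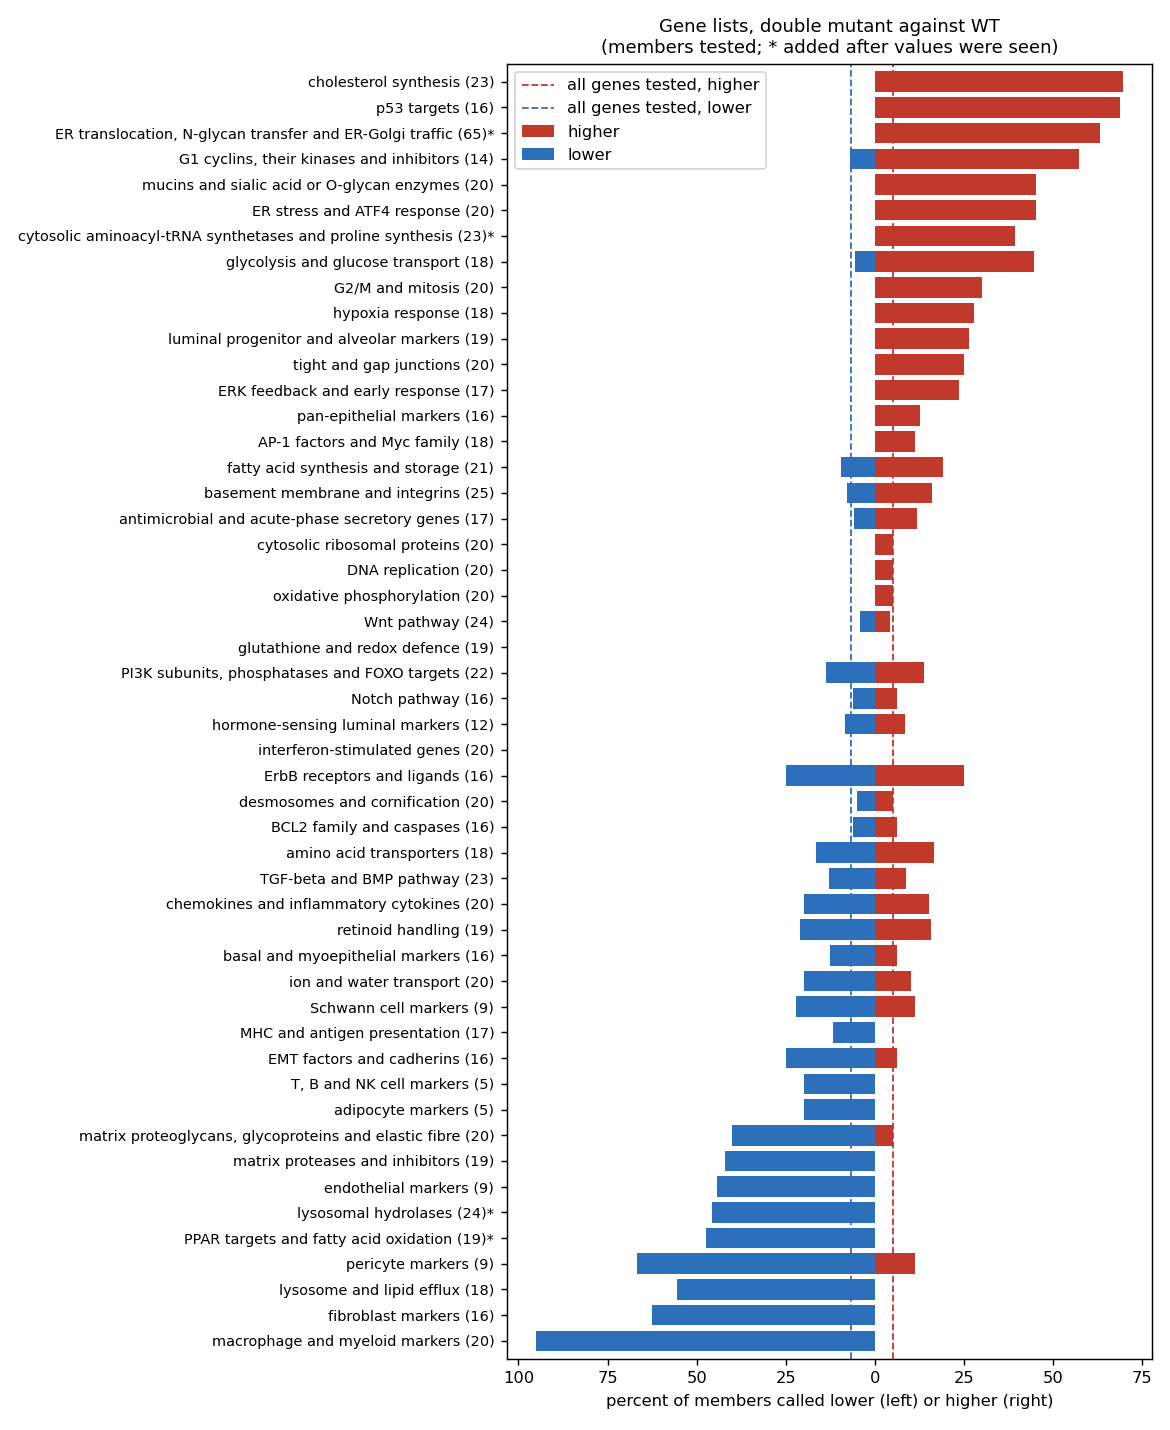
Percent of the tested members of each gene list that passed the test in the double mutants, higher to the right and lower to the left (x axis), with dashed lines at the values for all tested genes and an asterisk for the 4 lists added after values were seen. The bars of cholesterol synthesis and of ER to Golgi traffic lie on the higher side only and that of macrophage markers on the lower side only.

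Sterol genes are switched on by SREBP factors, which bind a sterol regulatory element. The letters TCACNCCAC (N is any base) were looked for on both strands in RefSeq windows of GRCm38.p6 that run from 250 bases before to 50 bases after each gene start. This motif was chosen after the rise of the list was known. It was in 1 of the 16 cholesterol genes that had a window, Hmgcs1, and in 1.44% of all genes. The 250 bases before the start of Hmgcs1 (chr13:119690101-119690350, plus strand) are shown because they hold that match, which is in capitals.

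Hmgcs1: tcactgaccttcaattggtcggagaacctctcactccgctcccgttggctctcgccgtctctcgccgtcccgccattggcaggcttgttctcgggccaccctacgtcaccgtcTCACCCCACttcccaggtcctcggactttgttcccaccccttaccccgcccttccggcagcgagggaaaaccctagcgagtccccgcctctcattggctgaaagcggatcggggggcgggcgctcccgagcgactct

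Hmgcs1 itself, which makes the precursor of mevalonate, stood at 13.1, 13.6 and 14 CPM in WT and 54.6, 46.4, 25.1, 38.5 and 34.5 CPM in the double mutants (log2 fold change 1.55 ± 0.313 SE, adjusted p 0.00443), with double mutant 3 the lowest and still above all WT libraries. Of 21 genes of fatty acid synthesis and storage 4 rose (Acaca, Fasn, Fads1 and Scd2) and 2 fell (Plin2 and Cd36), of which 1 passed without WT library 1, without WT library 3 or without double mutants 2 and 3. Fasn, fatty acid synthase, rose from 502, 505 and 598 to 1151, 1169.9, 901, 2265 and 2348 CPM (log2 fold change 1.55 ± 0.354 SE, adjusted p 0.00948). Fads1, a fatty acid desaturase, rose from 113, 169 and 94.9 to 548, 353, 397, 621 and 697 CPM (log2 fold change 2.06 ± 0.351 SE, adjusted p 0.00141). Scd2, the desaturase of saturated fatty acids, rose from 755, 765 and 854 to 2117, 1419.8, 1606, 2897 and 3193 CPM (log2 fold change 1.51 ± 0.3 SE, adjusted p 0.00409). Fasn lost its call without WT library 1.

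Genes of the secretory path rose as a broad but small shift. Of 65 genes of ER translocation, N-glycan transfer and ER to Golgi traffic, a list added after values were seen, 41 rose and none fell, with a median log2 fold change of 0.59. Between 25 (without WT library 3) and 42 of the 65 rose when 1 library was left out. Arf4, a small GTPase of the Golgi, stood at 80.3, 91.5 and 87.6 CPM in WT and 155, 211, 178, 159 and 166 CPM in the double mutants (log2 fold change 1.01 ± 0.144 SE, adjusted p 0.000456). Stt3a, a catalytic subunit of the oligosaccharyltransferase, stood at 157, 178 and 177 CPM in WT and 298, 345, 291, 268 and 292 CPM in the double mutants (log2 fold change 0.81 ± 0.124 SE, adjusted p 0.000693). Sec13, a coat protein of vesicles that leave the ER, stood at 58.9, 59.3 and 50 CPM in WT and 125, 118, 94.4, 106 and 109 CPM in the double mutants (log2 fold change 0.98 ± 0.152 SE, adjusted p 0.000757). Ssr3, a subunit next to the ER translocon, stood at 109, 148 and 122 CPM in WT and 265, 292, 218, 209 and 232 CPM in the double mutants (log2 fold change 0.94 ± 0.136 SE, adjusted p 0.000484). These genes were named for the smallest p in the list. At folds of about 2 or less, that choice favours genes with a small spread within each genotype. Against HER2 single mutants 13 of the 65 were higher and none lower, and against PIK3CA single mutants 5 were higher and none lower, where 1.03% and 0.309% of all genes were higher.

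Of 20 genes of ER stress and the ATF4 response 9 rose and none fell, with a median log2 fold change of 0.98, and 4 or 5 of them passed when a WT library was left out. Hspa5, the main chaperone of the ER, stood at 249, 271 and 293 CPM in WT and 816, 965, 664, 590 and 933 CPM in the double mutants (log2 fold change 1.55 ± 0.23 SE, adjusted p 0.000571). Hsp90b1, its HSP90 counterpart, stood at 129.5, 161 and 153 CPM in WT and 374, 345, 279.6, 247 and 366 CPM in the double mutants (log2 fold change 1.12 ± 0.175 SE, adjusted p 0.000756). Sesn2, a target of both ATF4 and p53, rose from 31.1, 32.1 and 31.7 to 77.2, 72.3, 84.2, 77.6 and 91.2 CPM (log2 fold change 1.35 ± 0.206 SE, adjusted p 0.000677), with closely grouped values in both genotypes. Ddit3, the transcription factor CHOP, stood at 10.4, 6.54 and 11.8 CPM in WT and 18.2, 68.7, 178, 18.8 and 27.4 CPM in the double mutants (log2 fold change 2.70 ± 0.756 SE, adjusted p 0.0295), with double mutants 2 and 3 far above the other 3, and its call was lost without any 1 WT library and without double mutant 2 or 3. Against HER2 single mutants 1 of the 20 was higher and against PIK3CA single mutants 6, where 1.03% and 0.309% of all genes were higher.

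ER chaperone genes share an ER stress response element, which reads CCAAT, then 9 bases of any kind, then CCACG. It does not overlap the sterol motif and was looked for in the same windows on both strands, after the rise of these lists was known. It was in 3 of the 20 genes (Hspa5, Hsp90b1 and Creld2), in none of the 52 genes of the ER and Golgi list that had a window, and in 0.137% of all genes. Creld2, the third of these, did not pass the test (log2 fold change 0.83 ± 0.331 SE, adjusted p 0.117). The 250 bases before the start of Hspa5 (chr2:34771840-34772089, plus strand) and Hsp90b1 (chr10:86705445-86705694, minus strand) are shown with the matches in capitals, as 2 genes that held the element and rose.

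Hspa5: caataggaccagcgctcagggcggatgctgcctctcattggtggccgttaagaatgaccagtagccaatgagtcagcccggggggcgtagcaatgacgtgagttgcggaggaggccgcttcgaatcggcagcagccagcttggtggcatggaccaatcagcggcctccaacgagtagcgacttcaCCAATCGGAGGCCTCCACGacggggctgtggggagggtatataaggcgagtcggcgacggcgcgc

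Hsp90b1: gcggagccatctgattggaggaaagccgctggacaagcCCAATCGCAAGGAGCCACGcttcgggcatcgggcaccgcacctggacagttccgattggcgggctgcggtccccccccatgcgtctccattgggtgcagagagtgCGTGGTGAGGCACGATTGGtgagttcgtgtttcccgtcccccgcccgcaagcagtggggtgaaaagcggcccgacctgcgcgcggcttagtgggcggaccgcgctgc

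Of 23 cytosolic aminoacyl-tRNA synthetases and proline synthesis genes, another list added after values were seen, 9 rose and none fell, and 14 rose without double mutants 2 and 3. Pycr1, the last enzyme of proline synthesis, rose from 5.61, 12.7 and 6.61 to 44.6, 42, 27, 56 and 50.4 CPM (log2 fold change 2.41 ± 0.425 SE, adjusted p 0.00182). Aldh18a1, the first, rose from 42.8, 75 and 56 to 153, 110.2, 122, 150.2 and 169 CPM (log2 fold change 1.28 ± 0.226 SE, adjusted p 0.00177). Aars, alanyl-tRNA synthetase, rose from 88.3, 76.9 and 97.8 to 164, 175, 173, 160.2 and 178 CPM (log2 fold change 0.95 ± 0.173 SE, adjusted p 0.00214).

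The axis named in the study's title was read in 14 cyclins, kinases and inhibitors of G1, of which 8 rose and 1 fell. Ccnd1, cyclin D1, stood at 70.7, 119.6 and 55.5 CPM in WT and 477, 297, 332, 504 and 545 CPM in the double mutants, 5.26-fold higher (log2 fold change 2.40 ± 0.417 SE, adjusted p 0.00165), with double mutants 2 and 3 the lowest of the 5. Cdkn1a, the inhibitor p21, stood at 17.8, 51.4 and 25.6 CPM in WT and 148, 331, 324, 158 and 167 CPM in the double mutants, 7.14-fold higher (log2 fold change 2.84 ± 0.567 SE, adjusted p 0.00418), with double mutants 2 and 3 the highest of the 5. The cyclin and the inhibitor therefore both rose, and the 2 libraries that stand apart were at opposite ends for them. Ccnd3, cyclin D3, rose from 34.5, 35.9 and 34.1 to 52.1, 68.5, 66.1, 58.7 and 56 CPM (log2 fold change 0.79 ± 0.143 SE, adjusted p 0.00214). Ccne1, cyclin E1, rose from 0.804, 1.18 and 1.58 to 5.02, 4.26, 4.51, 5.23 and 6.2 CPM (log2 fold change 2.08 ± 0.433 SE, adjusted p 0.00535). These 4 genes kept their call when any 1 library was left out.

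The kinases gave a mixed picture. Cdk6 stood at 33.2, 57.7 and 40.4 CPM in WT and 78.9, 98.9, 106, 99.3 and 102 CPM in the double mutants (log2 fold change 1.15 ± 0.272 SE, adjusted p 0.0118) and Cdk2 at 20.1, 24.5 and 21.4 CPM in WT and 31.1, 36.9, 28, 30.1 and 27.8 CPM in the double mutants (log2 fold change 0.48 ± 0.128 SE, adjusted p 0.0222), both called with all libraries and not without WT library 1 or 3. Cdk4 did not pass, with 100, 125 and 109.8 CPM in WT and 195, 127, 98.7, 138 and 136 CPM in the double mutants (log2 fold change 0.31 ± 0.188 SE, adjusted p 0.308). The inhibitor genes Cdkn2a and Cdkn2b, which share a locus, rose, to 32.7, 15.1, 15.8, 28.3 and 29.2 CPM from 2.6, 11 and 2.82 CPM for Cdkn2a (log2 fold change 2.15 ± 0.504 SE, adjusted p 0.0113) and to 27.3, 23.6, 29.6, 28.6 and 32.8 CPM from 11.5, 16.3 and 9.18 CPM for Cdkn2b (log2 fold change 1.20 ± 0.283 SE, adjusted p 0.0115), and neither call held without WT library 1 or 3. Cdkn1b, the inhibitor p27, had 112, 91.6 and 99 CPM in WT and 84.5, 154, 122, 90.5 and 86.2 CPM in the double mutants (log2 fold change 0.09 ± 0.249 SE, adjusted p 0.854). Rb1, the substrate of the G1 kinases, fell from 603, 544 and 578 to 277, 297, 391, 403 and 338 CPM (log2 fold change -0.75 ± 0.224 SE, adjusted p 0.039), a call that 6 of the 8 fits with 1 library left out did not keep. Ccnd2 (log2 fold change 0.03 ± 0.692 SE, adjusted p 0.987), Ccne2 (log2 fold change -0.13 ± 0.232 SE, adjusted p 0.762) and E2f1 (log2 fold change 0.63 ± 0.229 SE, adjusted p 0.0878) did not pass. Of the 14 genes, 4 passed as higher without WT library 1 and 4 without WT library 3.

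Set beside the single mutants, Ccnd1 had 255 ± 171 CPM (SD, n = 4) in HER2 single mutants and 268 ± 69.5 CPM (SD, n = 4) in PIK3CA single mutants, and neither difference from the double mutants passed (adjusted p 0.272 and 0.449). Cdkn1a had 149.6 ± 102 CPM (SD, n = 4) in HER2 single mutants and 95.2 ± 41.6 CPM (SD, n = 4) in PIK3CA single mutants, again without a call (adjusted p 0.561 and 0.28). Both means of the double mutants were the highest of the 4 genotypes. Rb1 was the 1 gene of this list that differed from the HER2 mutation alone, with 148 ± 60 CPM (SD, n = 4) in HER2 single mutants (log2 difference 1.20, adjusted p 0.00961).

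**Figure D4:**
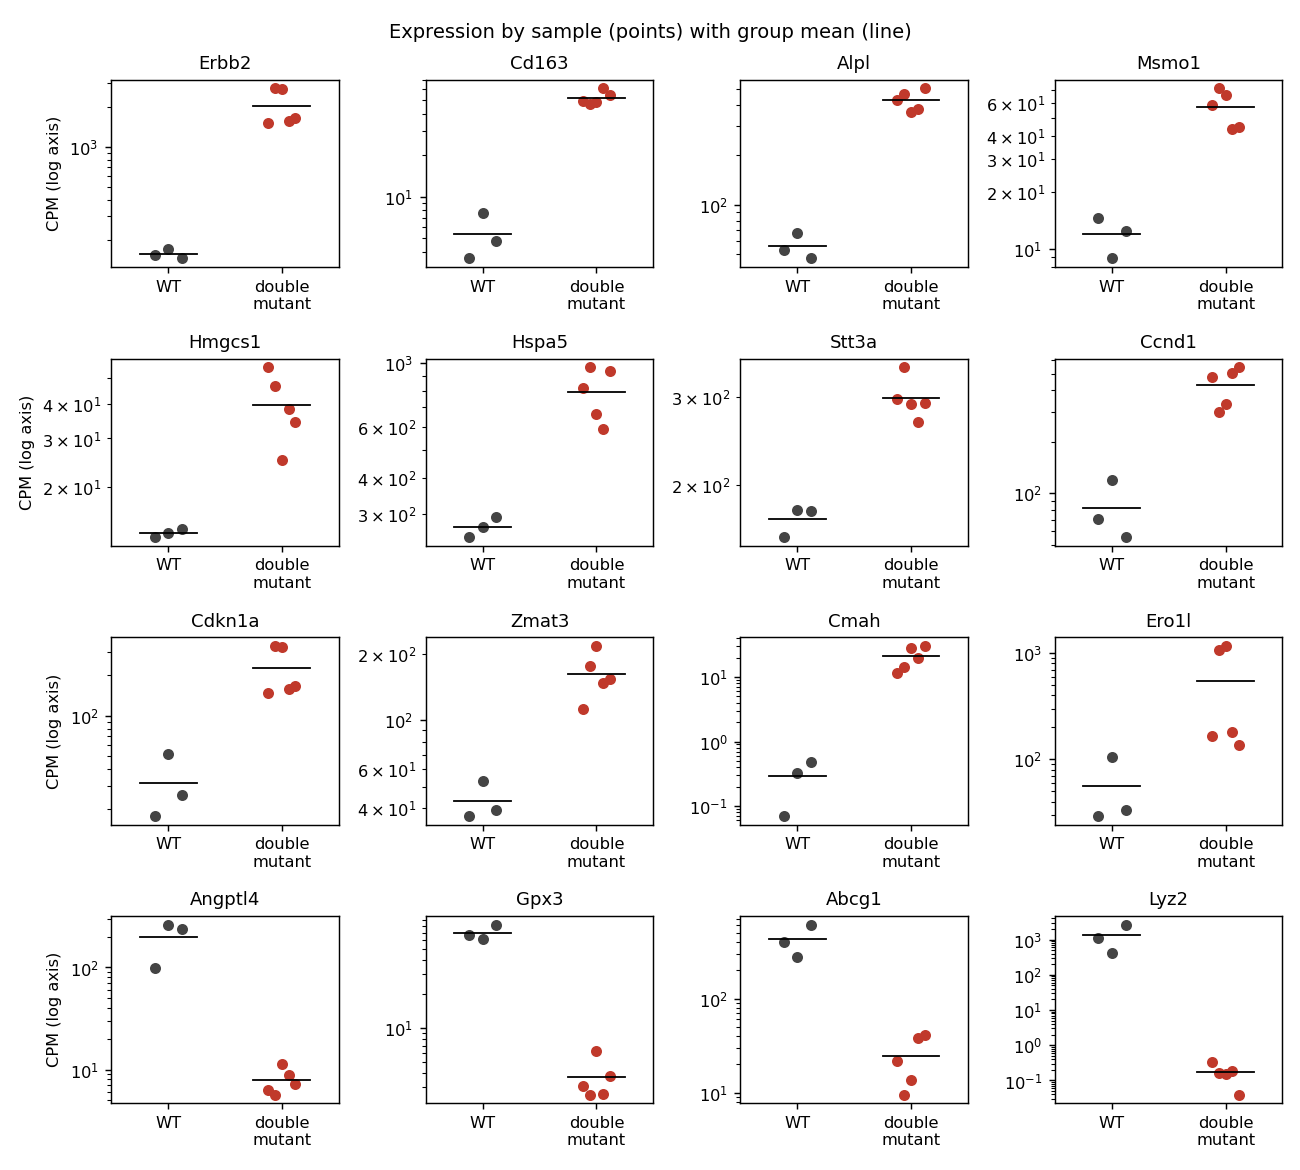
Level of 16 named genes in CPM (y axis, log scale) in each of the 3 WT and 5 double mutant libraries (x axis groups), 1 panel per gene and 1 point per library. In the panels of Erbb2, Cd163, Ccnd1 and Cdkn1a every double mutant point lies above every WT point, and in that of Lyz2 every double mutant point lies below.

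Cdkn1a was 1 of 11 p53 targets that rose among 16, with none that fell and a median log2 fold change of 1.28. Zmat3, an RNA-binding growth regulator, rose from 36.9, 53 and 39.2 to 112, 176, 217, 148 and 154 CPM (log2 fold change 1.91 ± 0.316 SE, adjusted p 0.00115). Aen, a nuclease of the apoptosis response, rose from 14.1, 17.9 and 15.3 to 35.1, 71.2, 69.5, 35.2 and 35.5 CPM (log2 fold change 1.64 ± 0.304 SE, adjusted p 0.00249). Bbc3, the death factor PUMA, rose from 18.3, 20.2 and 21.4 to 31.5, 60.6, 61.9, 39.9 and 41.3 CPM (log2 fold change 1.23 ± 0.231 SE, adjusted p 0.00269). Mdm2, the ubiquitin ligase that limits p53, stood at 71.2, 78.5 and 74.8 CPM in WT and 98.1, 142, 162, 103 and 106 CPM in the double mutants (log2 fold change 0.71 ± 0.201 SE, adjusted p 0.0314), and its call was lost without any 1 WT library and without double mutant 2 or 3. For Aen, Bbc3 and Mdm2 the 2 highest libraries were double mutants 2 and 3. At least 8 of the 16 passed in every fit with 1 library left out, and 8 passed without double mutants 2 and 3. Of these 16, 1 was higher against HER2 single mutants and 2 against PIK3CA single mutants, where 1.03% and 0.309% of all genes were higher.

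Genes of division mostly had positive fold changes, and some of them passed, where 5.03% of all tested genes were higher. All 20 G2/M and mitosis genes had a positive log2 fold change, with a median of 1.45, and 6 of them rose. Bub1b, a spindle checkpoint kinase, rose from 2.17, 3.92 and 4.04 to 14.3, 15, 12.3, 11.9 and 10.5 CPM (log2 fold change 1.92 ± 0.366 SE, adjusted p 0.00303). Cdk1, the mitotic kinase, rose from 2.57, 6.22 and 4.99 to 18, 19.8, 14.1, 12.8 and 13.9 CPM (log2 fold change 1.78 ± 0.345 SE, adjusted p 0.00351). Mki67, a marker of cycling cells, did not pass, with 10.6, 32.8 and 53 CPM in WT and 140.1, 52.8, 32.4, 78 and 98.1 CPM in the double mutants (log2 fold change 1.32 ± 0.692 SE, adjusted p 0.236) and overlapping groups. Only 3 of the 20 passed without WT library 1 or 2 and without double mutant 1 or 2, and DESeq2 called 12. Of 20 DNA replication genes 1 (Cdt1) rose, though not without any 1 of the WT libraries, none fell, and the median was 0.26.

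Glycolysis and hypoxia genes gave counts that depended on a few libraries. Of 18 glycolysis genes 8 rose and 1 fell, and of 18 hypoxia response genes 5 rose and none fell. Ldha, lactate dehydrogenase and a member of both lists, stood at 226, 321 and 236 CPM in WT and 1056, 836, 638, 560.1 and 503 CPM in the double mutants (log2 fold change 1.46 ± 0.307 SE, adjusted p 0.00567). Pgk1, a glycolytic kinase, stood at 78.5, 259 and 92.5 CPM in WT and 603, 1638, 1029, 369.9 and 326 CPM in the double mutants (log2 fold change 2.47 ± 0.591 SE, adjusted p 0.0127). Ero1l, the oxidase of the ER that responds to low oxygen, stood at 29.2, 105 and 33.5 CPM in WT and 166, 1081, 1168, 180.2 and 135 CPM in the double mutants (log2 fold change 3.29 ± 0.863 SE, adjusted p 0.0211). In both, double mutants 2 and 3 were the highest of the 5, and WT library 2 lay above the other WT libraries. The count was 1 for each list without double mutants 2 and 3, and also 1 for each without WT library 1 or without WT library 3. Slc2a1, the main glucose transporter, had 376, 403 and 308 CPM in WT and 425, 1053, 1355, 377 and 339.6 CPM in the double mutants and did not pass (log2 fold change 0.97 ± 0.45 SE, adjusted p 0.178). Slc2a3, a second glucose transporter, was the gene that fell, with 0.717, 2.78 and 1.97 CPM in WT and 0.0177, 0.0839, 0.0589, 0.111 and 0 CPM in the double mutants (adjusted p 0.00679).

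**Figure D5:**
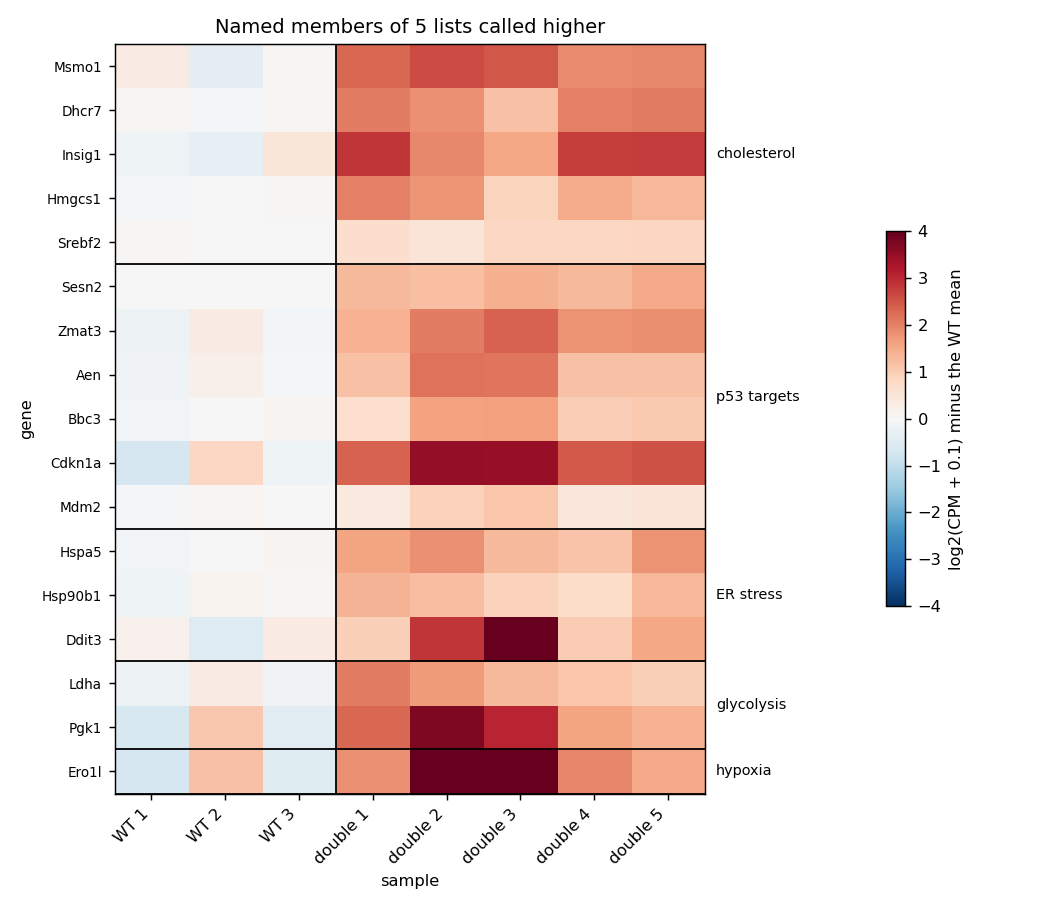
Difference of log2(CPM + 0.1) from the WT mean (colour, darkest at 4 or more) for members of 5 gene lists that were called higher and are named in the text (rows: cholesterol synthesis, p53 targets, ER stress, glycolysis and hypoxia) in the 3 WT and 5 double mutant libraries (columns). Glycolysis and hypoxia genes such as Ero1l and Pgk1 are strongest in double mutants 2 and 3, while Msmo1 and Hmgcs1 are raised in all 5.

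Many genes that burn or export lipid fell. Of 19 PPAR targets and fatty acid oxidation genes, a list added after values were seen, 9 fell and none rose. Angptl4, a secreted inhibitor of lipoprotein lipase, was the lower gene with the smallest p and stood at 99.4, 262 and 237 CPM in WT and 6.33, 5.64, 11.4, 8.85 and 7.29 CPM in the double mutants, 25.2-fold lower (log2 fold change -4.66 ± 0.377 SE, adjusted p 1.17e-05). Cpt1a, the gate of fatty acids into mitochondria, fell from 103, 183 and 177 to 39.6, 14.7, 20.1, 42.3 and 37.5 CPM (log2 fold change -2.32 ± 0.29 SE, adjusted p 0.000217). Pdk4, a kinase that spares glucose, fell from 14.7, 56.1 and 27.9 to 0.0709, 0.713, 0.196, 0.536 and 0.467 CPM (log2 fold change -6.38 ± 1.16 SE, adjusted p 0.00227). Cd36, a fatty acid transporter of macrophages, adipocytes and epithelium, was at 19.5, 9.89 and 29.9 CPM in WT and 0.0355, 0.021, 0.0393, 0 and 0.0389 CPM in the double mutants (adjusted p 4.08e-05), while its level was 14.3 ± 11.2 CPM (SD, n = 4) in HER2 single mutants (adjusted p 0.000421 against the double mutants).

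Of 18 genes of the lysosome and lipid efflux 10 fell and none rose, and of 24 lysosomal hydrolases, added after values were seen, 11 fell and none rose. Abcg1 and Abca1, which export cholesterol and are switched on by sterol-sensing LXR factors, both fell. Abcg1 stood at 396, 279 and 606 CPM in WT and 21.6, 9.5, 13.6, 38.6 and 40.9 CPM in the double mutants (log2 fold change -4.10 ± 0.428 SE, adjusted p 0.000125). Abca1 stood at 1635, 1249.6 and 2221 CPM in WT and 226, 252, 393, 407 and 425 CPM in the double mutants (log2 fold change -2.32 ± 0.306 SE, adjusted p 0.000321). Ctsa, a lysosomal carboxypeptidase, fell from 214, 189 and 275 to 137, 97.9, 98.5, 96.2 and 103 CPM (log2 fold change -1.08 ± 0.163 SE, adjusted p 0.000628). Dpp7, a lysosomal dipeptidase, fell from 13.9, 8.89 and 21.7 to 4.82, 2.66, 2.45, 4.03 and 3.34 CPM (log2 fold change -2.10 ± 0.285 SE, adjusted p 0.000346). For these 4 genes WT library 2 was the lowest WT library and WT library 3 the highest, the same order as for the summed macrophage markers, and the part of those markers in the result was not tested. Angptl4 and Cpt1a had another order, with WT library 1 the lowest and WT library 2 the highest. The summed fibroblast markers had that order as well, and their part in the result was not tested. Without WT library 3 the counts were 6 of 19, 5 of 18 and 7 of 24.

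Further genes with the smallest p came from outside the lists. Alpl, alkaline phosphatase, rose from 52.9, 67.7 and 47.2 to 434, 471, 366, 379 and 508 CPM (log2 fold change 2.95 ± 0.26 SE, adjusted p 2.27e-05). Tsc22d3, the glucocorticoid-induced leucine zipper and a FOXO target, rose from 10.2, 12.9 and 9.69 to 51, 95.2, 46.8, 68.6 and 57.7 CPM (log2 fold change 2.55 ± 0.285 SE, adjusted p 0.000178). Fyb2 rose from 5.82, 3.74 and 4.04 to 23.1, 31.9, 40.1, 25.5 and 25.6 CPM (log2 fold change 2.69 ± 0.313 SE, adjusted p 0.000198). Adgrg6, an adhesion receptor, rose from 19, 25.6 and 20.9 to 87.2, 64.2, 48.6, 74.8 and 79.2 CPM (log2 fold change 1.70 ± 0.206 SE, adjusted p 0.000208). Gpx3, a secreted glutathione peroxidase, fell from 67.1, 60.9 and 82.2 to 3.09, 2.56, 6.28, 2.59 and 3.79 CPM (log2 fold change -4.26 ± 0.365 SE, adjusted p 1.84e-05). Tns1, a focal adhesion protein gene, fell from 35.7, 42.2 and 86.5 to 3.9, 6.38, 6.89, 8.31 and 7.93 CPM (log2 fold change -3.03 ± 0.293 SE, adjusted p 5.94e-05). Zfp704 fell from 384, 376 and 390.4 to 145, 128, 158, 176 and 164 CPM (log2 fold change -1.32 ± 0.131 SE, adjusted p 7.37e-05), with WT libraries that hardly differed. Foxn3, a forkhead factor gene, fell from 216, 175 and 229 to 91.2, 81.8, 103, 100 and 98.9 CPM (log2 fold change -1.12 ± 0.128 SE, adjusted p 0.000197). Grik3, a glutamate receptor subunit gene, was among the largest losses, from 80.1, 57.4 and 98.1 to 1.05, 0.315, 0.157, 0.831 and 0.778 CPM (log2 fold change -6.96 ± 0.804 SE, adjusted p 0.000198). That the 2 groups do not overlap was a condition for naming these 9 genes and is not a separate result. None of the 9 lost its call when 1 library was left out, but most were picked for a small p in these same libraries. That they kept it is therefore not a separate result either.

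The counts of further lists, most of them of signalling, stand beside 5.03% higher and 6.72% lower among all tested genes. Of 24 Wnt pathway genes 1 rose (Tcf7) and 1 fell (Lgr5), and of 16 Notch genes 1 rose (Notch3) and 1 fell (Notch2), with no call in either list without WT library 1 or without WT library 3. Of 23 TGF-beta and BMP genes 2 rose (Tgfb2 and Inhba) and 3 fell (Smad9, Tgfb3 and Grem1), while without WT library 3 none rose and 1 fell and without double mutants 2 and 3 there was 1 in each direction. Of 20 cytokines and chemokines 3 rose (Ccl20, Cxcl1 and Tnf) and 4 fell (Ccl2, Ccl7, Cxcl12 and Cxcl14), and 1 rose without WT library 3. Ccl20, which draws CCR6-bearing cells, stood at 0.035, 0.08 and 0 CPM in WT and 2.13, 9.96, 2.67, 3.95 and 1.17 CPM in the double mutants (log2 fold change 6.67 ± 1.19 SE, adjusted p 0.00198). Ccl2, which draws monocytes, fell from 5.42, 12.2 and 22.5 to 1.6, 0.545, 0.353, 0.887 and 0.972 CPM (log2 fold change -3.94 ± 0.699 SE, adjusted p 0.00188). Of 20 interferon-stimulated genes 0 passed in edgeR, 0 at an unadjusted p under 0.05 and 0 in DESeq2, and the summed level in CPM was 842, 264 and 367 in WT and 449, 278, 281, 978 and 1256 in the double mutants, with double mutants 4 and 5 above the highest WT library and double mutants 2 and 3 near the lowest. Against HER2 single mutants the same 20 genes had a median log2 difference of 1.22, with 0 calls in edgeR, 14 genes at an unadjusted p under 0.05 and 3 in DESeq2. Of 20 ribosomal protein genes 1 rose (Rpl32), and of 20 oxidative phosphorylation genes 1 (Uqcrfs1), neither of which passed without WT library 1 or 3. Genes named here by their count alone were chosen after their values were seen.

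To ask which changes were larger with both mutations than with either, the double mutants were also set against each single mutant in the same fit. These comparisons share the double mutant libraries with the comparison to WT, so that their results are not independent of it. Against HER2 single mutants 606 genes (2.5%) passed, 249 higher (1.03%) and 357 lower (1.47%), and against PIK3CA single mutants 163 (0.672%), 75 higher (0.309%) and 88 lower (0.363%). All single mutants and double mutants came from tumor. Homer1, a scaffold protein gene, stood at 14.6, 12.3 and 13.5 CPM in WT and 32.4, 37.5, 26.7, 32.2 and 28.1 CPM in the double mutants, at 16.4 ± 2.04 CPM (SD, n = 4) in HER2 single mutants and at 18.6 ± 1.75 CPM (SD, n = 4) in PIK3CA single mutants. The log2 difference of the double mutants was 1.22 from WT, 0.94 from HER2 mutants and 0.76 from PIK3CA mutants (adjusted p 0.000208, 0.00279 and 0.0211).

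Sec22b and Yipf5, also picked by the rule for all 3 comparisons, are genes of the secretory path. Sec22b, a SNARE of ER to Golgi vesicles, stood at 44.6, 54.1 and 48 CPM in WT and 78.3, 105, 102, 80.3 and 87.5 CPM in the double mutants, and differed by 0.89 from WT, 0.80 from HER2 mutants and 0.73 from PIK3CA mutants on the log2 scale (adjusted p 0.00158, 0.00821 and 0.0274). Yipf5, a membrane protein gene of the same vesicles, differed by 0.69, 0.65 and 0.59 (adjusted p 0.00123, 0.00637 and 0.0211). Sec22b had 51.9 ± 10.2 CPM (SD, n = 4) in HER2 single mutants and 54.6 ± 3.22 CPM (SD, n = 4) in PIK3CA single mutants, both closer to the WT mean than to that of the double mutants.

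The 4 lower genes picked in the same way were Cecr2, Heg1, Grb7 and Calcoco1. Cecr2, a chromatin remodelling gene, stood at 43.5, 29.1 and 35.1 CPM in WT and 8.97, 16.1, 11.7, 14.1 and 6.22 CPM in the double mutants, and differed by -1.65 from WT, -1.38 from HER2 mutants and -1.62 from PIK3CA mutants (adjusted p 0.00101, 0.0109 and 0.0128). Heg1, a membrane mucin-like protein gene, stood at 433, 156 and 418 CPM in WT and 74.9, 77.2, 87.7, 92.5 and 90 CPM in the double mutants and differed by -1.99, -1.30 and -1.57 (adjusted p 0.000348, 0.0152 and 0.0148). Calcoco1, a receptor of ER and Golgi autophagy, stood at 136, 136 and 142 CPM in WT and 86.8, 64.9, 69.4, 84.8 and 78.7 CPM in the double mutants and differed by -0.84, -0.64 and -0.81 (adjusted p 0.000959, 0.0161 and 0.0128). Grb7, given above, differed by -0.73 from HER2 mutants and -1.63 from PIK3CA mutants (adjusted p 0.0152 and 6.79e-05). Erbb2 was lower in the double mutants than with the HER2 mutation alone, against 3599.8 ± 803 CPM (SD, n = 4) in HER2 single mutants (log2 difference -0.83, adjusted p 0.0483). Erbb3 differed by -0.56 and -1.18 from the HER2 and PIK3CA single mutants (adjusted p 0.0239 and 0.000332).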

How the data were processed

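Gene expression was measured by RNA-seq in 16 mouse organoid libraries, of which the 5 double mutants and 3 WT were compared here. Per the labels' protocols, RNA was taken with a column kit and 1.3 µg of total RNA went into libraries made with a SMARTer mRNA kit. The values used are the raw counts per gene that the authors deposited. The submitters' processing notes name bcl2fastq 2.20, STAR 2.0.4b, Subread, featureCounts 1.4.5, DESeq2 1.33.5 and the mm10 build, without their settings, and whether counting used strand is not given in the sources used here. Reads of overlapping or antisense genes therefore cannot be told apart. A normalized table from the authors was not used.

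Of 55774 entries, 287 repeated Ensembl identifiers were dropped. All 16 libraries were fitted with edgeR 4.0.16 (R 4.3.3, limma 3.58.1) in a quasi-likelihood model of genotype, after edgeR's default filter on low counts and TMM scaling. The test is two-sided with Benjamini-Hochberg adjustment over the 24252 genes kept, and genes with adjusted p under 0.05 are called. The standard error (SE) is the log2 fold change divided by the root of F. CPM use TMM-scaled library sizes. Gene positions are from GENCODE M21 on GRCm38, and promoter windows from RefSeq. The fitting script was tested on simulated data.

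Genes were named by rule: the 12 largest changes and the 10 smallest p in each direction among called genes with a proper symbol, no overlap between genotypes and a mean level of 1 log2 CPM or more, up to 4 members with the smallest p per list, the 4 in each direction with the strongest calls against WT and both single mutants, and all G1 genes. Some genes the rule named are not reported here, and further list members were named after their values were seen. The members and the 46 gene lists were chosen with earlier results of these data known, and 4 more lists were added after values were seen. Same-numbered WT and double mutant libraries did not deviate together, so no pairing was used. Alternatives were other scalings, no filter, DESeq2 1.42.0, only 8 libraries, a replicate block, an offset for GC content and length, and leaving out libraries.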

Additional observations from a re-analysis of the deposited data

Results flagged for a closer look

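Of 174 genes named in the text, 17 had 1 double mutant library that stood away from the other 4, judged by its gap to the nearest library as a share of the range over the 5 (Dixon's 95% limit of 0.71 for 5 samples). Chance gives such a gap in about 1 of 20 groups. In double mutant 1, Ctsa was at 137 CPM against 96.2 to 103 CPM in the other 4, Cdk6 at 78.9 CPM against 98.9 to 106 CPM, Gpnmb at 0.443 CPM against 0.0972 to 0.185 CPM, and Erg at 1.67 CPM against 0.021 to 0.443 CPM. In double mutant 2, Muc4 was at 109 CPM against 7.57 to 22.6 CPM, Pglyrp1 at 67.4 CPM against 17.4 to 29.3 CPM, and Cxcl1 at 37.2 CPM against 19.6 to 24.1 CPM. In the same library Tgfb2 was at 105 CPM against 74.7 to 81 CPM and Mmp11 at 2.41 CPM against 3.55 to 3.95 CPM. Nid2 was at 0.399 CPM there against 0.0981 to 0.177 CPM and Kdr at 0.168 CPM against 0.0177 to 0.0393 CPM. In double mutant 3, Tnc was at 1527 CPM against 332 to 589 CPM, Reck at 37 CPM against 19.3 to 21.6 CPM, Svep1 at 1.16 CPM against 0.203 to 0.461 CPM, and Cxcl14 at 19.5 CPM against 2.55 to 7.06 CPM. In double mutant 4, Aldh1a2 was at 0.0369 CPM while the other 4 had no read of it, a value under that of 3 reads. In double mutant 5, Myh11 was at 1.07 CPM against 2.12 to 2.46 CPM. The WT group of 3 libraries was not judged in this way.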

How the results depend on the processing

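The number of genes called against WT stayed within 1.5 times of 2850 with median-of-ratios scaling (2855), upper-quartile scaling (2884), no filter on low counts (2484), a fit of only the 8 libraries (2677), an offset for GC content and length (2928), DESeq2 (4143) and, chosen after seeing the data, leaving out double mutants 2 and 3 (2146). DESeq2 called 2028 genes higher, over 1.5 times the count of edgeR, and 2115 lower. Leaving out 1 library gave 1200 to 2955 calls, 385 to 1333 of them higher and 815 to 1622 lower. With WT library 2 as the only WT library, also chosen after seeing the data and with its spread assumed like that of the other genotypes, 284 genes were called, 23 higher and 261 lower. Of 189 genes named by rule that were called, 135 kept the call in all 8 fits with 1 library left out, 41 lost it without WT library 1, 14 without WT library 2, 47 without WT library 3 and 17 without a double mutant library. All 189 were called by DESeq2.

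Same-numbered WT and double mutant libraries had correlations of -0.0575, -0.0096 and -0.0815 between their deviations, so they did not deviate together. Whether the numbers link libraries of the other genotypes was not tested. A replicate block left 2358 calls in a fit of all 16 libraries (2351 with the offset as well) and 1318 in the 8 libraries, 506 higher and 812 lower.

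Against HER2 single mutants, 606 calls became 118 with the block, 117 with the block and the offset, 257 to 614 without 1 library, 1106 without double mutants 2 and 3, 367 with WT library 2 as the only WT library and 1715 with DESeq2. Against PIK3CA single mutants, 163 calls became 19, 12, 50 to 142, 209, 45 and 661 under the same settings. The cause of these differences was not tested.

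Among the genes named in the text, the fold changes that changed sign were those of 4 genes that were not called. Egfr was 0.04 (block), 0.09 (block, 8 libraries), 0.06 (offset), 0.16 (block and offset), and from -0.11 to 0.03 over the fits without 1 library. Ccnd2 ranged from -0.64 to 0.39 without 1 library and was -0.39 without double mutants 2 and 3, and -0.13 with 1 WT library. Cdkn1b ranged from -0.07 to 0.17 without 1 library and was -0.21 without double mutants 2 and 3, and Hbegf -0.18 without both. The depth of 3 reads per library limits the fold changes of genes near 0 in 1 genotype.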

Other observations

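Some gene groups not described above held changes in both directions, where 5.03% of all tested genes were higher and 6.72% lower. Of 25 basement membrane and integrin genes 4 rose and 2 fell, and 2 rose without WT library 1, without WT library 3, without double mutant 3 or without double mutants 2 and 3. Lama4, a laminin chain gene, rose from 34.4, 62.6 and 49.6 to 109, 93.1, 83.7, 108 and 107 CPM (log2 fold change 1.04 ± 0.209 SE, adjusted p 0.00443), while Nid2, a nidogen gene, fell from 0.804, 2.7 and 4.82 to 0.177, 0.399, 0.0981, 0.166 and 0.156 CPM (log2 fold change -3.79 ± 0.652 SE, adjusted p 0.00151). Of 19 retinoid handling genes 3 rose and 4 fell. Aldh1a2, an enzyme that makes retinoic acid, stood at 3.46, 1.56 and 7.89 CPM in WT and 0, 0, 0, 0.0369 and 0 CPM in the double mutants (adjusted p 0.000478). Of 18 amino acid transporters 3 rose and 3 fell (1 fell without WT library 3), among them the taurine transporter gene Slc6a6, which fell from 991, 567 and 1040.3 to 153, 141, 253, 207 and 187 CPM (log2 fold change -2.20 ± 0.294 SE, adjusted p 0.000324). Cdh19, a cadherin gene known from Schwann cells, rose from 0.857, 1.42 and 1.99 to 11.5, 11.3, 14.1, 5.62 and 12.8 CPM (log2 fold change 2.96 ± 0.553 SE, adjusted p 0.00268).

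The median log2 fold change of the genes on chromosome 11, which holds Erbb2, was 0.02, and that on chromosome 3, which holds Pik3ca, was 0.07.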
